A study of Homo sapiens with 6 samples.

Results

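The class 3 semaphorins, their neuropilin co-receptors and the plexin A receptors were followed in D283 Med, a line grown from a childhood medulloblastoma, in WT cells and in cells with Musashi-1 knockdown. The list held 10 genes, of which 9 were among the 31785 rows of the deposited expression table. They were SEMA3A, SEMA3C and SEMA3D (ligands), NRP1 and NRP2 (neuropilins) and PLXNA1, PLXNA2, PLXNA3 and PLXNA4 (plexins). The expression of SEMA3E was not analysed here. The members were picked by symbol once the difference between the groups was known, so their differences and calls are a description, not a test.

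The study asks what lowering Musashi-1, which binds RNA in neural stem cells and is encoded by MSI1, does in Group 3/4 medulloblastoma cells. RNA sequencing covered 6 libraries, 3 labelled WT (genotype WT) and 3 labelled Musashi-1 Knockdown (genotype MS1 Knockdown), all from the single line D283 grown in serum-containing DMEM/F12. How the knockdown was made, and whether WT cells carried a control construct, is not stated in the labels. Nothing says that libraries of 1 group were grown as separate cultures, so the spread between them may be partly technical.

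Class 3 semaphorins are secreted proteins that steer growing axons and migrating neurons, mostly by repulsion. The ligand binds a neuropilin, which has a short intracellular tail, and the signal enters the cell through a plexin, whose intracellular domain acts on small GTPases and the cytoskeleton. In the developing cerebellum and in tumours of neural origin the same system takes part in migration, adhesion and vessel growth.

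Values are normalised reads, that is, reads divided by 1 size factor per library, obtained by inverting the function the authors had applied. Differences are knockdown minus WT on the authors' deposited log2-like scale, where weakly expressed genes have understated differences. The libraries held 17299671 to 38790342 reads in WT and 18895997 to 24442276 in knockdown. In normalised reads MSI1 itself stood at 1586, 1572 and 1378 in WT and at 1385, 1197 and 1281 in knockdown, so that the groups overlapped. Its difference of −0.21 (SE 0.12) did not pass the test over all rows (limma, adjusted p = 0.304). The medulloblastoma factor OTX2 (19886 to 26228 normalised reads in WT, 27356 to 34344 in knockdown) and MYC (14128 to 18519 and 21881 to 24285) were abundant. Both lay higher in every knockdown library, but neither passed the test (limma, adjusted p = 0.229 and 0.0976). EOMES and BARHL1, on the same list of medulloblastoma markers, did not pass the filter on low values. Of the 9 markers tested on that list, 6 lay higher in knockdown and 3 lower by their difference, and of these 1 rose and 1 fell by the test. CRX, among the lower, averaged 1863 normalised reads in WT and 1543 in knockdown (difference −0.27, SE 0.15, limma adjusted p = 0.304). None of the 5 leukocyte markers passed the filter on low values, and their summed level was 7.32 to 44.5 in WT and 2.02 to 10.7 in knockdown. The glial markers GFAP, AQP4 and MBP had 0 to 13 reads per library. SLC1A3, on the same list, was expressed, with 467 to 1060 normalised reads in WT and 575 to 690 in knockdown. Glial markers were thus not uniformly low.

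SEMA3A, the founding repellent of the class, had the largest difference between the groups among these genes. Its level was 5485, 5279 and 3486 normalised reads in WT 1, 2 and 3. In knockdown 1, 2 and 3 it was 1584, 1368 and 1693. The groups were far apart, and even the lowest WT library held more than any knockdown library. Group means were 4750 ± 1099 and 1548 ± 165 (SD, n = 3 each), a 3.07-fold lower level in knockdown. The difference was −1.53 (SE 0.17) on the deposited scale. Leaving out 1 library at a time gave folds of 2.83 to 3.48. In bulk RNA, fewer cells that make a transcript and less of it per cell cannot be told apart.

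SEMA3C, a ligand that can attract as well as repel and that acts through either neuropilin, was also lower. Its values were 167, 242 and 296 normalised reads in WT and 112, 61.6 and 122 in knockdown. The groups did not overlap, though the gap between the lowest WT and the highest knockdown library was small. Group means were 235 ± 64.6 and 98.8 ± 32.5 (SD, n = 3 each), 2.38-fold lower, with a difference of −0.80 (SE 0.19). WT 3 was the lowest WT library for SEMA3A and the highest for SEMA3C, so the WT libraries did not rank alike for these ligands. The fold was 2.07 without WT 3 and 2.00 without knockdown 2.

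SEMA3D, a guidance cue of the neural crest and heart, was barely detected. It had 0, 6 and 14 reads in WT and 12, 2 and 4 in knockdown, and it did not pass the filter on low values. The count of 0 in WT 1 allows up to 4.39 normalised reads (3 reads, counting error only). No difference was detectable at this depth.

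**Figure D1:**
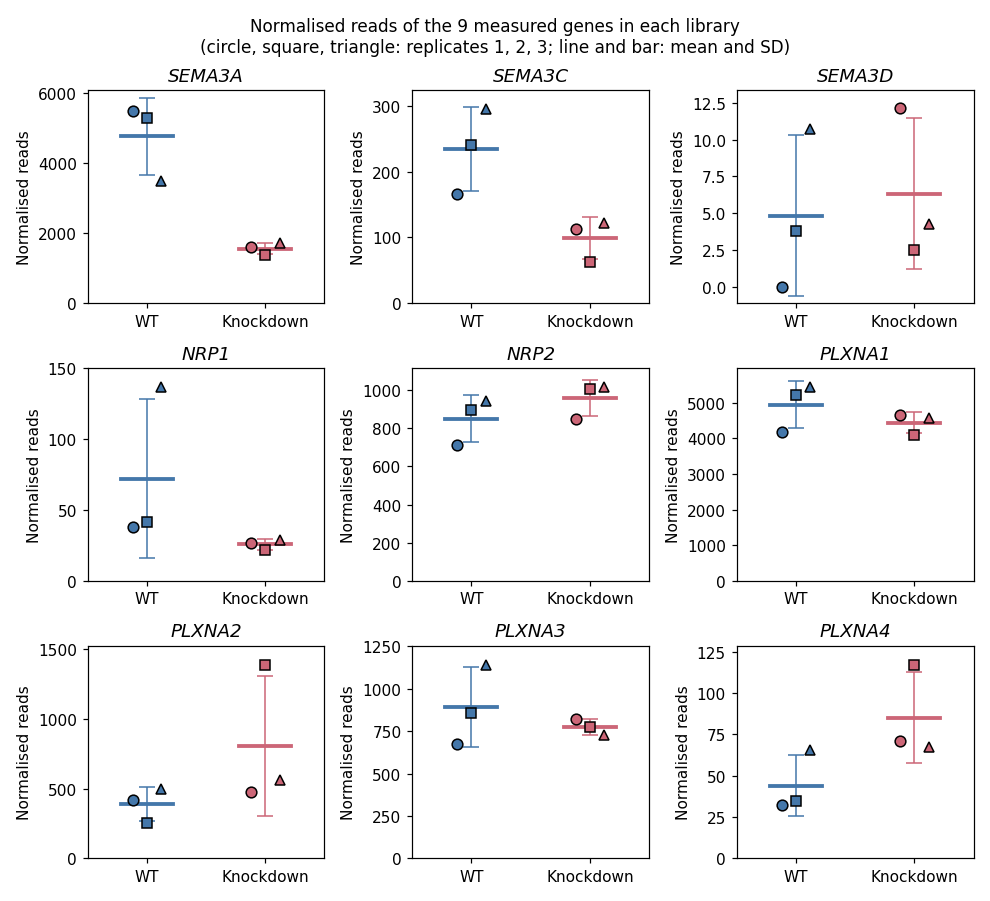
Normalised reads (vertical axes, linear, each with its own scale) of the 9 measured genes in the WT and knockdown libraries. Each point is 1 library, lines are means and bars SD over 3 libraries. SEMA3A and SEMA3C lie lower in all 3 knockdown libraries than in any WT library, while PLXNA2 has 1 high knockdown library at 1385.

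Because Musashi-1 binds RNA, the 3′ untranslated regions (3′ UTRs) of the members were searched for GUAGU, written GTAGT in the DNA alphabet, one form of the consensus reported for Musashi-1. Only the transcript strand was read, and matches were allowed to overlap. The sites of the 2 ligands that differed most are shown here on GRCh38 (GENCODE 29, minus strand of chromosome 7, 5′ to 3′ along the mRNA), with the matching letters in capitals. SEMA3A had 4 matches in 5594 bases, at chr7:83960625-83960649, chr7:83959386-83959410, chr7:83958210-83958234 and chr7:83956102-83956126. SEMA3C had 3 matches in 2356 bases, at chr7:80744459-80744483, chr7:80743699-80743723 and chr7:80742600-80742624.
SEMA3A site 1: attgtgctatGTAGTttttgtttta
SEMA3A site 2: tgtacagaaaGTAGTgtttcaaata
SEMA3A site 3: tttcttcattGTAGTcatctgtaaa
SEMA3A site 4: gtcagcacatGTAGTtgataggcag
SEMA3C site 1: cagcttttacGTAGTaaaagtcata
SEMA3C site 2: aagtgtaaaaGTAGTaaattttgtg
SEMA3C site 3: caaactaaatGTAGTtgtcacacta

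Over all 10 listed genes there were 24 matches, 17 of them in the 4 semaphorins and 2 in the 4 plexins. Per kb of 3′ UTR, SEMA3A had 0.715 matches, SEMA3C 1.27, SEMA3D 1.8, NRP1 1.16 and NRP2 0.65, against 0.683 over the 3′ UTRs of 11600 expressed coding genes. PLXNA3 had 0.196 and PLXNA4 0.14 per kb, and PLXNA1 and PLXNA2 had none. Base composition differed too. The 3′ UTRs of the semaphorins were 28.7% to 33.4% G and C and those of the plexins 48.1% to 60.2%, with a median of 42.3% over the expressed coding genes. In a window of fixed length, the first 1000 bases after the stop codon, 3 of the 10 genes had a match (SEMA3A, SEMA3C and NRP1), against 45% of 6024 expressed coding genes with a 3′ UTR of that length. A match is only a string of letters, and binding was not measured in these data.

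**Figure D2:**
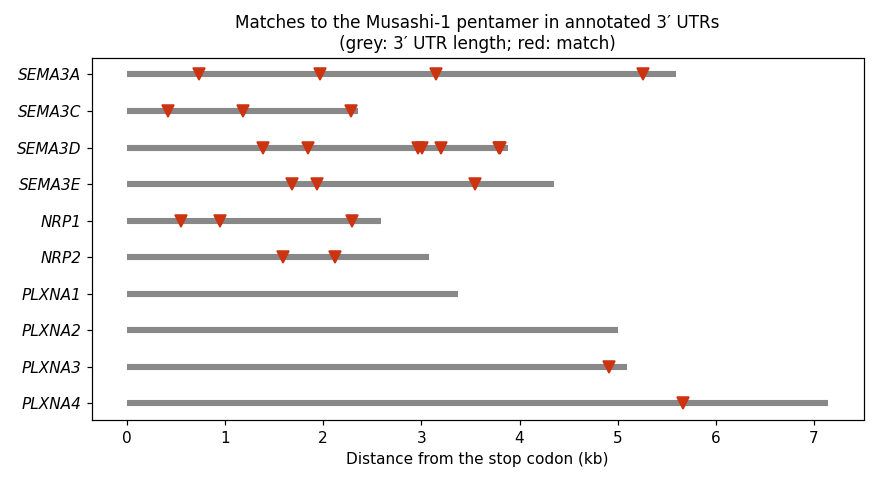
Matches to the pentamer (red triangles) along the annotated 3′ UTR (grey bar) of each listed gene, as distance from the stop codon in kb. Matches are spread over the semaphorin 3′ UTRs, while PLXNA1 and PLXNA2 have none.

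Of the neuropilins, NRP1, the main SEMA3A-binding co-receptor and also a co-receptor of vascular endothelial growth factor, was scarce. It had 38.1, 41.6 and 137 normalised reads in WT and 26.3, 21.4 and 29 in knockdown, from 17 to 178 reads per library. All knockdown libraries lay below all WT libraries, but WT 3 stood far above the other WT libraries. Group means were 72.1 ± 55.9 and 25.6 ± 3.85 (SD, n = 3 each), with a difference of −0.53 (SE 0.22) on the deposited scale. Without WT 3 the fold of the means went from 2.82 to 1.56 and the difference from −0.53 to −0.23. NRP2, the co-receptor favoured by SEMA3F and shared by SEMA3C, had 713, 897 and 944 normalised reads in WT and 849, 1009 and 1017 in knockdown. Its groups overlapped, with a difference of 0.16 (SE 0.13). Per kb of exon, the share of NRP2 among neuropilin reads was 91.3% ± 5.32 in the WT group and 96.9% ± 0.577 in the knockdown group (SD, n = 3).

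Among the plexins A, PLXNA1, a signalling receptor for SEMA3A with NRP1, was the most abundant. It had 4189, 5229 and 5443 normalised reads in WT and 4647, 4108 and 4582 in knockdown. The groups overlapped and the difference was −0.15 (SE 0.13). PLXNA3, a receptor that pairs with NRP2 for SEMA3F, had 672, 860 and 1141 in WT and 823, 776 and 728 in knockdown. All 3 knockdown values lay within the WT range (difference −0.15, SE 0.16), and the difference was 0.02 without WT 3. PLXNA3 overlaps LAGE3, which runs on the opposite strand and averaged 463 normalised reads, and whether counting used strand is not stated in the labels.

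PLXNA2, which guides axons and granule cell precursors in the cerebellum, differed mainly through 1 library. Its values were 420, 253 and 494 normalised reads in WT and 475, 1385 and 559 in knockdown. Knockdown 1 lay within the WT range and knockdown 2 at more than any other library. Group means were 389 ± 123 and 806 ± 503 (SD, n = 3 each), 2.07-fold apart, but 1.33-fold without knockdown 2. The difference was 0.79 (SE 0.32), and 0.37 without knockdown 2. PLXNA4, a neuronal receptor for SEMA3A, was low, with 32.2, 34.7 and 65.2 normalised reads in WT and 70.8, 117 and 67.6 in knockdown. The groups did not overlap, though WT 3 came within a few reads of knockdown 3. The difference was 0.45 (SE 0.17), 0.31 without knockdown 2 and 0.58 without WT 3.

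Of the 8 members that passed the filter, 2 (SEMA3A and SEMA3C) were among the rows called in the fit over the whole table (limma, adjusted p under 0.05), both lower. SEMA3A kept its call in all 16 alternatives to the fit, SEMA3C in only 9. Over all 13558 rows tested 4.10% were called, 1.78% higher and 2.32% lower. Groups did not overlap for 4 of the 8 members (SEMA3A, SEMA3C, NRP1 and PLXNA4), against 27.8% of all rows. Since this contrast helped choose the members, nothing is read from their calls, from how often these were kept or from these shares. The members moved both ways, 5 lower and 3 higher, with a median difference of −0.15 against 0.01 over all rows tested.

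**Figure D3:**
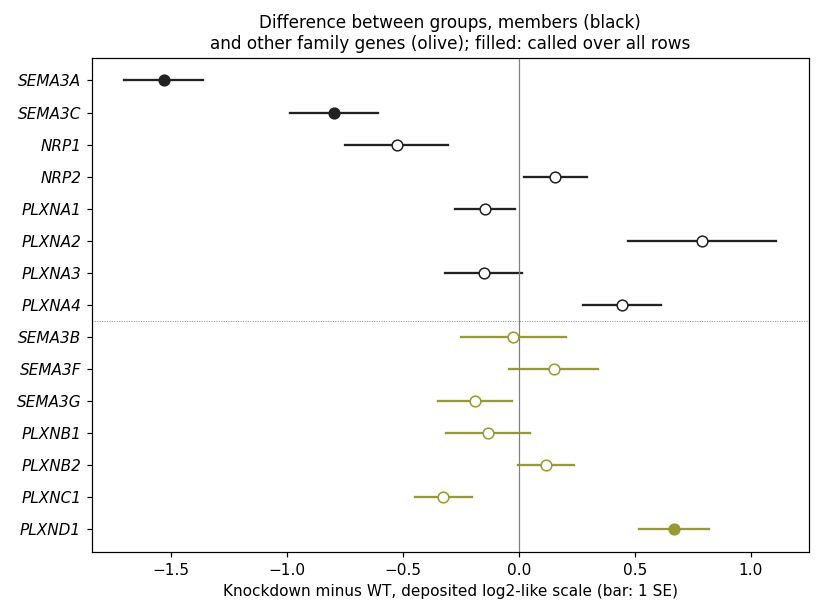
Difference between knockdown and WT on the deposited log2-like scale (horizontal axis; bars 1 SE) for the 8 members tested and for the other class 3 semaphorins and plexins. Filled points were called over all rows; SEMA3A at −1.53 is the lowest and PLXNA2 at 0.79 has the widest bar.

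Levels of different genes were compared per kb of exon. In WT the order was SEMA3A (507 ± 117 normalised reads per kb), PLXNA1 (453 ± 61.3), PLXNA3 (76.1 ± 20.1), NRP2 (61.3 ± 8.78), SEMA3C (37.4 ± 10.3), PLXNA2 (28.2 ± 8.95), NRP1 (6.26 ± 4.85), PLXNA4 (2.69 ± 1.1) and SEMA3D (0.601 ± 0.676; SD, n = 3). Library ranges overlapped between SEMA3A and PLXNA1, between PLXNA3 and NRP2, between SEMA3C and PLXNA2 and between NRP1 and PLXNA4. Within each WT library PLXNA3 lay above NRP2 and NRP1 above PLXNA4, while the order of the other 2 pairs differed between WT libraries. In knockdown PLXNA1 (406 ± 26.9 per kb) came first and SEMA3A next (165 ± 17.6), without overlap. They were followed by NRP2 (69.0 ± 6.82), PLXNA3 (66.2 ± 4.06) and PLXNA2 (58.5 ± 36.5), whose library ranges overlapped. SEMA3C (15.8 ± 5.19), PLXNA4 (5.20 ± 1.69), NRP1 (2.22 ± 0.334) and SEMA3D (0.784 ± 0.635) came last, with no overlap between neighbours.

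SEMA3A made up a smaller share of the ligand pool in knockdown and SEMA3F a larger one. In WT 1, 2 and 3 SEMA3A gave 39.8%, 33.9% and 36.3% of class 3 semaphorin reads per kb, and in knockdown 1, 2 and 3 it gave 14.6%, 14.8% and 16.5%. Replicates lay within a few percentage points of each other. SEMA3F, which repels through NRP2, gave 54.4% ± 3.64 in WT and 76.3% ± 1.85 in knockdown (SD, n = 3). Its own level did not pass the test, with 3873, 4647 and 2504 normalised reads in WT and 4271, 3710 and 3937 in knockdown (difference 0.15, SE 0.19, limma adjusted p = 0.693, and −0.09 without WT 3). The summed class 3 level was 1386 ± 327 per kb in WT and 1079 ± 86.5 in knockdown, and the libraries of both groups overlapped in that sum. Over plexins A and D1, PLXNA1 gave 62.8% ± 2.71 in WT and 51.3% ± 7.09 in knockdown. PLXND1 gave 22.4% ± 4.17 and 32.6% ± 3.88 of the same sum. Over plexins A alone, PLXNA1 gave 78.4% to 83.6% in WT libraries and 68.3% to 79.7% in knockdown libraries, with overlap. The lowest of these shares was that of knockdown 2.

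**Figure D4:**
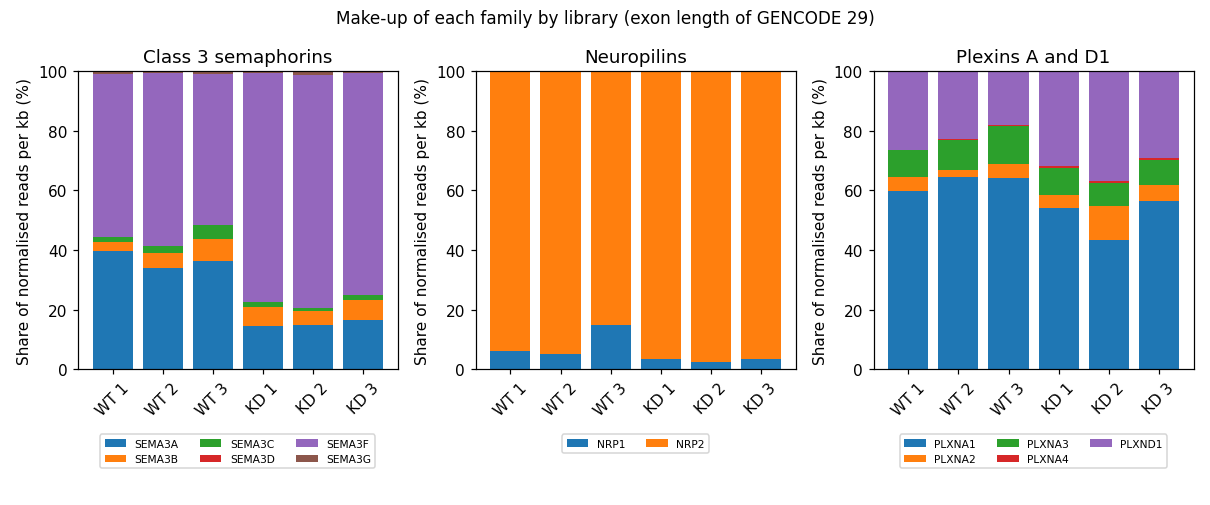
Share of normalised reads per kb (vertical axis, percent) that each gene took within its family in each library. SEMA3A takes 33.9% to 39.8% of the class 3 ligands in WT and 14.6% to 16.5% in knockdown, and NRP2 is the main neuropilin in every library.

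The other class 3 semaphorins did not pass the test. SEMA3B, a ligand deleted or silenced in several tumours, averaged 386 ± 137 normalised reads in the WT group and 370 ± 92.6 in the other, with a difference of −0.02 (SE 0.23, limma adjusted p = 0.964). Its sign turned without WT 2, WT 3 or knockdown 2 (0.14, 0.06 and 0.15). SEMA3G, an endothelial ligand of NRP2, had 65.4 ± 13.7 and 50.2 ± 21 (difference −0.19, SE 0.16, limma adjusted p = 0.526).

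Of the 4 other plexins tested, PLXND1 rose. This is the receptor that SEMA3E binds without a neuropilin and that also serves SEMA3C. It had 1647, 1654 and 1361 normalised reads in WT and 2441, 3116 and 2105 in knockdown. Every knockdown library lay above every WT library. The rise was 1.64-fold, from 1554 ± 167 to 2554 ± 515 (SD, n = 3 each), with a difference of 0.67 (SE 0.15, limma adjusted p = 0.0393, range over 16 alternatives 0.0208 to 0.135). The call was lost without WT 2, without WT 3 and without any 1 of the knockdown libraries (adjusted p = 0.0727, 0.0753, 0.135, 0.117 and 0.0617). PLXNB1 (−0.13, SE 0.18) and PLXNB2 (0.12, SE 0.12), receptors of class 4 semaphorins, did not pass, nor did PLXNC1, the SEMA7A receptor (−0.33, SE 0.12; limma adjusted p = 0.711, 0.61 and 0.16 in this order). The sign of PLXNB1 turned without knockdown 2 (0.03). PLXNB3, at 34.1 ± 12.2 normalised reads in WT against 16.4 ± 8.67 in knockdown, was not tested.

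In the membrane-bound and transmembrane semaphorins of classes 4 to 7, 1 of 12 tested genes fell, none rose, and the median difference was 0.18. The gene that fell was SEMA5B, which guides axons and trims synapses. It had 394, 365 and 200 normalised reads in WT and 102, 136 and 117 in knockdown, so the groups did not overlap. It was 2.70-fold lower (difference −0.95, SE 0.19, limma adjusted p = 0.0283, range over 16 alternatives 0.00391 to 0.121). The call was lost without WT 2 (adjusted p = 0.0781) and without knockdown 1, 2 or 3 (0.121, 0.0713 and 0.0901).

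Receptor partners and other neuropilin ligands, such as L1CAM, the vascular endothelial growth factors and their receptors, had no called gene among 12 tested (median −0.09). CNTN1, a neuronal adhesion molecule named after its values were seen, did not pass the filter and was not tested. WT libraries held 52.7, 83.3 and 47.6 normalised reads of CNTN1, against 0, 2.52 and 0 in the libraries labelled knockdown, without overlap. By normalised reads, not corrected for length, the most abundant of the tested genes were PTK7, a receptor-like pseudokinase that can join plexin A complexes, at 0.21 (SE 0.12, limma adjusted p = 0.358), and GIPC1, the adaptor that binds the neuropilin tail, at −0.27 (SE 0.12, limma adjusted p = 0.219). Of 29 intracellular effectors 1 fell and none rose (median −0.03). MICAL2, of the MICAL oxidoreductases that disassemble actin filaments downstream of plexins, had 1640, 1577 and 1547 normalised reads in WT and 801, 1078 and 880 in knockdown. The groups were well apart, and the fall was 1.73-fold (difference −0.73, SE 0.13, limma adjusted p = 0.0154, range over 16 alternatives 0.00335 to 0.0842). It missed the threshold without knockdown 1 or 3 (adjusted p = 0.0842 and 0.0726). The collapsin response mediators CRMP1, DPYSL2, DPYSL3, DPYSL4 and DPYSL5, which relay SEMA3A to microtubules, were tested and none was called.

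All 6 proteases that process semaphorins or their receptors had lower means in knockdown (median −0.28), and 1 passed the test. Over all 13558 rows tested, 6642 were lower and 6916 higher, and 4.10% were called. The list was chosen with earlier results of these data known, so nothing is read from its counts. ADAM10, a sheddase of neuropilin and adhesion molecules, had 4435, 4497 and 3699 normalised reads in WT and 2555, 2992 and 2788 in knockdown. The groups did not overlap and the fall was 1.52-fold (difference −0.58, SE 0.12, limma adjusted p = 0.033, range over 16 alternatives 0.00768 to 0.152). It missed the threshold without WT 2 (adjusted p = 0.0827) and without knockdown 1, 2 or 3 (0.152, 0.073 and 0.125). FURIN, which cleaves class 3 semaphorins to their active forms, did not pass (difference −0.19, SE 0.14, limma adjusted p = 0.443). Among 14 genes of the netrin, Slit and RGM guidance families 1 rose and none fell (median −0.19). DRAXIN, a repellent that binds netrin receptors, had 52.7, 29 and 13.8 normalised reads in WT and 160, 151 and 65.5 in knockdown. The lowest knockdown library lay just above the highest WT library (difference 0.94, SE 0.22, limma adjusted p = 0.0443, range over 15 alternatives 0.0157 to 0.177). Its call was lost without WT 2, without WT 3 and without knockdown 1 or 2 (adjusted p = 0.0996, 0.0834, 0.177 and 0.133).

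**Figure D5:**
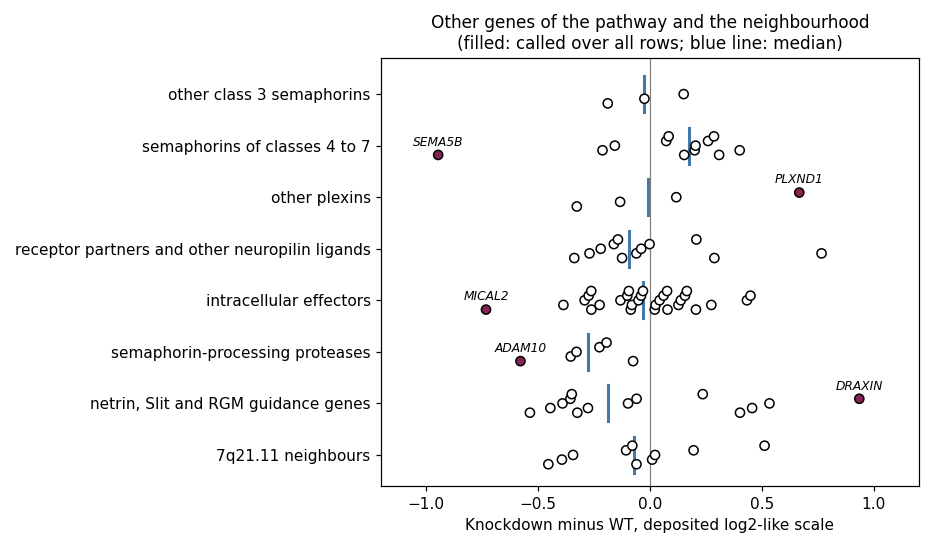
Difference between knockdown and WT on the deposited log2-like scale (horizontal axis) for the tested genes of each list, 1 point per gene, with called genes filled and list medians as blue lines. The called genes are SEMA5B, MICAL2 and ADAM10 on the lower side and PLXND1 and DRAXIN on the higher.

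The 4 listed ligands lie in 1 stretch of chromosome 7. On GRCh38 (GENCODE 29) SEMA3C spans 80742538 to 80922359, SEMA3E 83363238 to 83649113, SEMA3A 83955777 to 84492724 and SEMA3D 84995553 to 85186855, all on the minus strand. From SEMA3C to SEMA3D the stretch measures 4.44 megabases and holds 7 coding genes. Of the non-members in it, CACNA2D1, a calcium channel subunit, had a difference of 0.01 (SE 0.21, limma adjusted p = 0.985) and PCLO, a presynaptic scaffold, one of 0.51 (SE 0.19, limma adjusted p = 0.163). HGF, hepatocyte growth factor, had 0 to 6.44 normalised reads per library and was not tested. Neither neighbour passed the test. A wider list of this neighbourhood, with most of its genes outside the stretch, had 10 tested genes and none was called (median −0.07). The 651 tested rows of chromosome 7 had a median of −0.10, against 0.01 over all rows tested. Of these 651 rows, 24 were called lower and 6 higher. Over all 13558 rows tested, 314 were called lower and 242 higher. Why chromosome 7 leaned lower was not tested.

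The profile of SEMA3A was compared with 6450 tested rows that had a unique gene symbol and an SD of at least 0.2 over the 6 libraries. Nearness was the root mean square difference of row-centred values on the deposited log2-like scale. The nearest rows were CDH2, N-cadherin (0.131), C3, the central complement protein (0.149), MAT1A, a methionine adenosyltransferase (0.155), MGMT, a repair protein for alkylated guanine (0.162), and TULP1, a photoreceptor protein (0.208). That scale understates differences of weakly expressed genes, so near rows can differ in fold. In normalised reads MAT1A was 6.58-fold, MGMT 4.82-fold, TULP1 3.34-fold, C3 2.85-fold and CDH2 2.75-fold lower in knockdown, against 3.07-fold for SEMA3A. All 5 lay higher in every WT library than in any knockdown library, and all 5 had their lowest WT value in WT 3, as had SEMA3A. Rows picked for likeness to SEMA3A share such traits by selection, so nothing is read from this. Of the other members, SEMA3C (0.519) ranked 272 in nearness among the 6450 rows and NRP1 (0.711) ranked 2037, both on the deposited scale. All values come from the same 6 libraries.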

How the data were processed

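RNA sequencing of 6 D283 libraries (3 WT, 3 knockdown) was used. The submitters' processing notes name STAR and DESeq beside CASAVA 1.8.2, the trimmer Trim Galore and the quality reports FastQC and MultiQC, with GRCh38 as the build. Which counter and annotation were used, and whether strand was used, was not given in the labels or notes. The deposited values are log2-like: by its name and its values, the authors' table holds counts divided by library size factors and then variance-stabilised. The columns not headed as knockdown were taken as WT by elimination, and their numbers are those of the column headings. Inverting the function (offset 55.2) gave normalised reads, and 100% of values became whole reads (tolerance 0.01) after multiplication by 1 size factor per library.

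Rows were tested where the mean lay at least 1 above the lowest value (27.6 normalised reads), which kept 13558 rows. Testing used limma 3.58.1 under R 4.3.3 (mean-variance trend, two-sided, no covariates), Benjamini-Hochberg adjusted over these rows, with a threshold of 0.05; it was tested on simulated data. With 3 libraries a group, an exact permutation p is at least 0.1. Exon lengths and 3′ UTRs (transcript with the longest coding sequence) are from GENCODE 29 by gene name.

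The members and the gene lists were chosen with earlier results of these data known. Named beside the members were all other class 3 semaphorins and plexins, up to 4 called genes of each further list (or its 2 most abundant by normalised reads when none was called), the genes between the outermost semaphorins of chromosome 7, the 5 rows nearest to SEMA3A and MSI1. CRMP1, DPYSL2 to DPYSL5, FURIN, CNTN1, NRCAM, SLIT1 and the markers were named outside that rule. The 16 alternatives covered filters, scaling, pseudocounts, variance models, voom on recovered reads, a replicate block and each library left out. The result of 1 marker gene is not reported here.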

Additional observations from a re-analysis of the deposited data

How the results depend on the processing

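Of 16 alternatives to the fit with 556 called rows, 10 gave counts within 1.5 times. The count was 1213 with library weights and 221 with the replicate block, and leaving out 1 library gave 56 to 728 calls, with 202 without WT 2 and 56, 125 and 91 without knockdown 1, 2 and 3. The difference of SEMA3A was −1.73 to −1.42 over the 16. That of SEMA3C was −0.78 with quantile normalization, −0.80 with the replicate block and −0.96 to −0.63 with 1 library left out. SEMA3C lost its call in 7 of the 16. These were quantile normalization, the replicate block, and the fits without WT 2, WT 3 or knockdown 1, 2 or 3. Leaving out 1 library gave −0.32 to 0.023 for PLXNA3, turning without WT 3. NRP1 went from −0.53 to −1.27 with voom on recovered reads, and PLXNA4 from 0.45 to 0.96 with log2 of normalised reads + 1, since the deposited scale understates low genes. Among other named genes, leaving out 1 library gave −0.28 to 0.15 for SEMA3B (positive without WT 2, WT 3 or knockdown 2), −0.095 to 0.34 for SEMA3F (negative without WT 3), −0.29 to 0.035 for PLXNB1 (positive without knockdown 2) and −0.25 to 0.19 for CACNA2D1 (negative without WT 3 or knockdown 2). CACNA2D1 was also −0.0054 with each library centred on its median and −0.14 with library weights. ADAM10 missed the threshold with the replicate block (limma, adjusted p = 0.0665) and DRAXIN with library weights (0.0555). Where a cause is not stated, the cause was not tested. Same-numbered libraries did not deviate together (correlations over genes −0.0045, −0.25 and 0.0046), so no pairing by number was seen. With 3 libraries a group this check cannot exclude pairing, and the WT numbers are only those of the column headings. At 17 to 178 reads, NRP1 had wide counting error, and SEMA3D was below what these depths resolve.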

Other observations

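Knockdown 2 held the highest value of all 6 libraries for 5 genes picked after their values were seen, PLXNA2 (1385 normalised reads), PLXNA4 (117), PLXND1 (3116), PCLO (2607) and NRCAM (1494), the last a cell adhesion molecule of the neuropilin complex. The same library held the lowest value of all 6 for SLIT1 (787), a repulsive guidance ligand, and DPYSL3 (20835), picked in the same way. NRCAM had 662, 400 and 314 normalised reads in WT and 667 and 537 in knockdown 1 and 3. The difference of NRCAM was 0.77 (SE 0.32), short of the threshold (limma, adjusted p = 0.191). SEMA3A and SEMA3C had their lowest values in the same library, at 1368 and 61.6.

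Per kb of exon the most abundant semaphorin was SEMA6B, a transmembrane ligand that binds plexins A directly, without a neuropilin. It had 1825 normalised reads per kb in WT and 1896 in knockdown, against 507 and 165 for SEMA3A. SEMA6B did not pass the test (difference 0.08, SE 0.17, limma adjusted p = 0.82).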
